A study of Mus musculus with 8 samples.

Results

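The Hox genes are the 33 genes of the mouse HoxA, HoxB, HoxC and HoxD clusters that have a probe set of their own on the array, out of 18193 genes measured that way. A gene was taken when at least 1 probe set was annotated to its symbol alone, and its brightest probe set by mean signal over all arrays stood for it. HoxA gave 9 genes, HoxB 9, HoxC 7 and HoxD 8. Another 6 of the 39 Hox symbols in RefSeq were not analysed here. Dim members were kept and marked, with the limit at a mean signal of 94 array units.

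The samples were 8 mouse induced pluripotent stem (iPS) cell clones, each on 1 Affymetrix mouse genome expression array. They arose from embryonic fibroblasts (MEFs) of Col-OKSM mice, in which doxycycline switches on Oct4, Sox2, Klf4 and cMyc. Of these clones, 4 were derived with ascorbic acid (vitamin C) in the medium and 4 without it; they are called ascorbic acid clones 1 to 4 and control clones 1 to 4. Both groups had serum-containing ES cell medium with LIF and doxycycline, grew on irradiated MEF feeder cells and were preplated before RNA extraction to take feeders away, so reprogramming factors and feeders were common to both. The labels call the clones biological replicates but do not name separate embryos or cultures, so a p-value here speaks only of the spread among the clones at hand, which may in part be technical. No fibroblast array was analysed here, so no level below can be set against the cells of origin. Each array read a population of cells, in which fewer cells of a type and less RNA per cell cannot be told apart.

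Hox genes encode homeodomain transcription factors that give cells their position along the body axis, and within a cluster low-numbered genes act toward the head and high-numbered genes toward the tail and the limb tips. Pluripotent cells hold the clusters silent under Polycomb proteins, with repressive and activating histone marks side by side on promoters rich in CpG dinucleotides. Fibroblasts keep a Hox code of the body site they came from, which makes the clusters a place to look both for silencing and for memory of the fibroblast in an iPS clone.

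The cells carried the RNA of pluripotent cells. All 17 pluripotency markers on the list lay at or above the limit, among them Nanog with a mean signal of 9328, Esrrb with 4965 and Zfp42 with 4260. Pou5f1, the gene of Oct4, had 10789 and Sox2 had 14668. Doxycycline was in the medium and switches on Oct4, Sox2 and Klf4 in these cells. The part of the doxycycline-driven factors in the signals of Pou5f1, Sox2 and Klf4 was not tested. Markers of fibroblasts and feeder cells were present too: 37 of 39 measured genes reached the limit, and Fn1 (fibronectin) had a mean signal of 12561 and Vim (vimentin) 12703. Blood markers reached the limit for 10 of 13 genes, a share near that of all genes (13264 of 18193). Ptprc (CD45), the defining marker of blood cells, was under the limit at 41.8. Array medians lay between 134 and 156.2 array units, and the correlation between any pair of arrays over log2 values was 0.970 to 0.977.

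The sequences before the starts of these genes were read for CG dinucleotides, as a description without a test. RefSeq (GRCm38.p6) gave 21 windows of 250 bases before an annotated start for 19 of the 33 members. Of HoxB only Hoxb1 and Hoxb4 had a window and of HoxC only Hoxc4, so the values are mostly those of HoxA and HoxD. The Hox windows held 2 to 35 CG dinucleotides with a median of 13, against 6 in all 32851 windows and 10 in the 21262 windows of protein-coding genes. An observed over expected CpG ratio of at least 0.6 was found in 52.4% of Hox windows, 33.9% of all windows and 44.7% of coding windows; the Hox share is near that of coding genes. Shown are the windows of Hoxd1, the member whose groups did not overlap, of Hoxa3, the member with the smallest p, and of Hoxa9, a member at or above the limit in every clone with few CG; capitals mark CG, 24, 18 and 3 of them in that order. The Hoxd1 window is chr2:74762730-74762979 (plus strand), the Hoxa3 window chr6:52213068-52213317 and the Hoxa9 window chr6:52227371-52227620 (both minus strand), each written along the gene.
Hoxd1: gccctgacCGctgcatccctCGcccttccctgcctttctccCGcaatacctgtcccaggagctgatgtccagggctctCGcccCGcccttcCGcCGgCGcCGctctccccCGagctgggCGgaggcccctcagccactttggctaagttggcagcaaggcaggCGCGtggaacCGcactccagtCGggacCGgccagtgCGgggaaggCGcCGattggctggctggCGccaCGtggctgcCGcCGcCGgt
Hoxa3: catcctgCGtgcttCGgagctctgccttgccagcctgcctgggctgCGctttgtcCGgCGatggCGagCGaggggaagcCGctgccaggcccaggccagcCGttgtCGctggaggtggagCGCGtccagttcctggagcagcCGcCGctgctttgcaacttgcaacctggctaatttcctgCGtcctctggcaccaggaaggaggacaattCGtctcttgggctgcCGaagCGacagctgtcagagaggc
Hoxa9: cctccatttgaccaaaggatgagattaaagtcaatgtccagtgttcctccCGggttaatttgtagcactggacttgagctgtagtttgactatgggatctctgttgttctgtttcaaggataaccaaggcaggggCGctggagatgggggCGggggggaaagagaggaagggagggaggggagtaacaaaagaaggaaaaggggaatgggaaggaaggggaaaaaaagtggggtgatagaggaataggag
The arrays measure RNA and hold no reading of methylation or of protein at these sites.

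More of the Hox genes were dim than of genes in general. The mean signal was under the limit for 18 of 33 Hox genes (54.5%), against 4929 of 18193 genes (27.1%). Under the limit were 5 HoxA, 3 HoxB, 5 HoxC and 5 HoxD genes. The dim member closest to the limit was Hoxa13 with 82.5, and Hoxc8 was the closest above it with 102. Of the members, 7 reached the limit in every clone (21.2%, against 64.5% of all genes), 11 were under it in every clone (33.3%, against 18.5%), and 15 were on both sides (45.5%, against 17.1%). Families chosen after the data were seen, whose RNA is known from smell neurons and hair, gave these shares: 23 of 38 olfactory receptor genes (60.5%) and 19 of 34 keratin-associated protein genes (55.9%) were under the limit. In these families too some genes were above the limit, with mean signals of up to 214 for an olfactory receptor gene and up to 748 for a keratin-associated protein gene. Present and absent calls were not used, so no member is called expressed or silent.

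**Figure D1:**
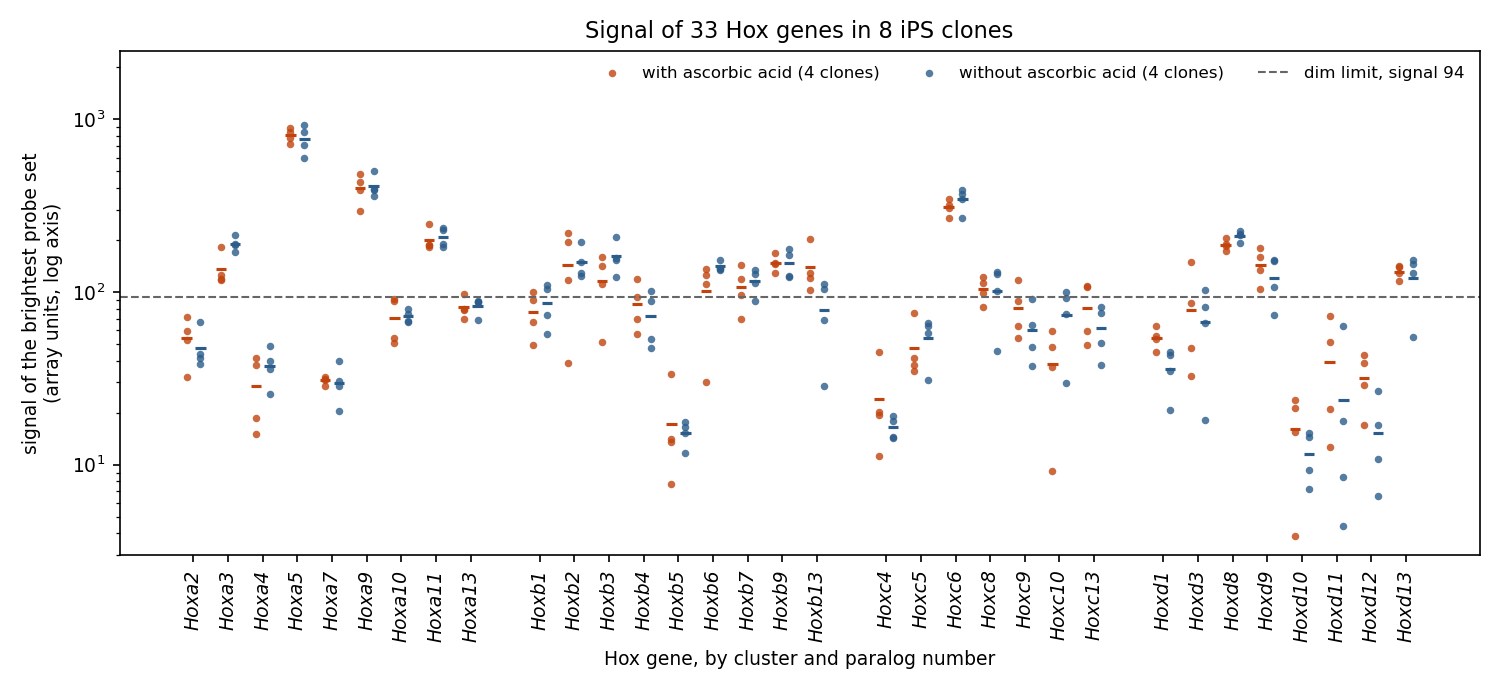
Signal of the brightest probe set of each of 33 Hox genes (log axis, array units) in 4 clones derived with ascorbic acid (orange) and 4 derived without (blue); short bars are group means and the dashed line is the limit of 94. Most members lie at or under the line, Hoxa5, Hoxa9 and Hoxc6 stay well above it in all clones, and the groups overlap for every gene but Hoxd1.

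In the plot of signals by gene and clone, the members above the line differ in how evenly the clones share the signal. HoxA members above the line were more even between clones than the median Hox gene, with SDs within groups of 0.18 to 0.25 against 0.37 (log2). All genes at or above the limit had a median SD of 0.15. Hoxa5, which is needed for lung and airway formation, had signals of 891, 716, 844.5 and 778 in ascorbic acid clones 1 to 4 and of 595, 841, 931 and 716 in control clones 1 to 4. Hoxa9, a regulator of blood stem cells, had 433, 296, 392 and 485 against 395, 359.9, 389 and 506. Hoxa11, a gene of the forearm and the uterus, had 186.5, 189, 183 and 246 against 191, 234, 229 and 183. The groups overlapped for all 3 genes, and their differences (with minus without, on log2(signal + 16), ± SE) were 0.08 ± 0.13, -0.05 ± 0.15 and -0.06 ± 0.15. Ascorbic acid clone 4 stood above the other 3 of its group for Hoxa11. Hoxa3, a gene of the pharyngeal arches, thymus and parathyroid, had 126, 119, 118 and 182 with ascorbic acid and 215, 186, 171 and 189 without. Of the ascorbic acid clones 3 lay under every control clone, and clone 4 lay inside the control range.

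HoxB members changed more from clone to clone, and ascorbic acid clone 3 was the low one for several of them. Hoxb2, a hindbrain gene, had 195, 117, 39.0 and 220.2 with ascorbic acid and 196, 124.0, 150.2 and 129.7 without. Hoxb6, a gene of the trunk and lateral plate, had 137, 111, 30.2 and 126 against 153, 137, 138 and 135. For both genes clone 3 of the ascorbic acid group fell under the limit while every control clone was above it. For Hoxb3, another hindbrain gene, the low array was ascorbic acid clone 2: the signals were 111.5, 51.4, 141 and 161 against 159, 209.7, 154 and 122. Hoxb7, known from the trunk and the ureteric bud of the kidney, had 70.3, 119.5, 95.8 and 143 against 88.9, 113, 127 and 133. Hoxb9, a gene of the thoracic skeleton, had 168.5, 146, 148 and 129.75 against 164, 177, 124 and 123. The groups overlapped for each of these 5 genes. Hoxb13, the tail-most HoxB gene and a marker of the prostate, had 120.4, 103, 128 and 204 with ascorbic acid and 105, 28.5, 68.8 and 111 without. The ascorbic acid clones were above the limit for Hoxb13 in 4 of 4 clones and the control clones in 2 of 4, with overlapping ranges.

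HoxC held 2 members above the limit. Hoxc6, a gene of the thoracic region, had 344, 308, 269 and 320.4 with ascorbic acid and 269, 391, 370.0 and 348 without. Hoxc8, which sets the identity of brachial motor neurons and thoracic vertebrae, had 112, 99.3, 122 and 81.4 against 127, 131, 102 and 45.6. The groups overlapped for both, and the lowest Hoxc8 signal was that of control clone 4.

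In HoxD the 3 members above the limit were Hoxd8, Hoxd9 and Hoxd13. Hoxd8, a trunk gene, had 189.6, 205, 173 and 184 with ascorbic acid and 227, 192, 213 and 217 without, the smallest spread of any member (SD within groups 0.09 on the log2 scale). Hoxd9, a gene of the lumbar region and the limb, had 133, 104, 159 and 180.0 against 153, 107, 152 and 73.5. Hoxd13, the gene of the digits, had 128, 141, 116 and 140.0 against 54.8, 153, 145 and 128. All 3 overlapped between groups, and control clone 1 stood under the limit for Hoxd13 and control clone 4 for Hoxd9. Both HoxD genes that come next were dim. Hoxd12, also a gene of the limb tip, had 16.9, 28.8, 38.6 and 43.3 with ascorbic acid and 26.9, 6.601, 17.04 and 10.8 without, with overlapping groups. Hoxd1, an anterior gene known from pain-sensing neurons, had 63.3, 55.4, 45.12 and 53.8 against 20.7, 43.4, 45.05 and 35.0. Its groups did not overlap, but the gap between the lowest ascorbic acid clone (45.12) and the highest control clone (45.05) was far smaller than the spread inside either group.

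The remaining 16 members were under the limit on average: Hoxa2, Hoxa4, Hoxa7, Hoxa10, Hoxa13, Hoxb1, Hoxb4, Hoxb5, Hoxc4, Hoxc5, Hoxc9, Hoxc10, Hoxc13, Hoxd3, Hoxd10 and Hoxd11. Their means ran from 13.8 for Hoxd10 to 82.5 for Hoxa13. Hoxd3, an anterior gene, had 149.7, 47.4, 32.5 and 86.5 with ascorbic acid and 18.05, 81.6, 66.1 and 102.55 without, a difference of 0.17 ± 0.45. None of these 16 had an unadjusted p under 0.05 or groups that did not overlap.

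The first comparison asked whether ascorbic acid during derivation went with a different Hox level. No Hox gene passed the test: 0 of 33 had a limma adjusted p under 0.05 (Benjamini-Hochberg over all genes), where 2 of 18193 genes passed (0.011%), Meg3 and Rian, imprinted noncoding RNAs that were both higher with ascorbic acid. The adjusted p of the Hox genes ran from 0.860 to 0.995. At an unadjusted limma p under 0.05 there were 3 Hox genes (9.09%), against 5.62% of all genes, and 1 Hox gene (3.03%) had groups that did not overlap, against 3.25% of all genes; both shares are read as near the background. Differences pointed up for 18 members and down for 15, and their median was 0.04 on the log2 scale, against -0.01 for all genes. Without control clone 1 this split turned to 13 up and 20 down. The count of 3 became 1 without ascorbic acid clone 1 or clone 4 or without control clone 2, and 0 without ascorbic acid clone 3. It was 2 without ascorbic acid clone 2 or control clone 1, and stayed at 3 without control clone 3 or clone 4. A test with fewer clones is also weaker. Under quantile normalization, median centring or a pseudocount of 64 the count was 4. With any 1 clone left out 2 to 4 members had groups that did not overlap, but 3 clones part from 4 more easily than 4 from 4. Under quantile normalization or median centring 3 of 33 had groups that did not overlap, Hoxb6, Hoxb13 and Hoxd1. The share of all genes without overlap was not counted under these settings, so these counts cannot be set against a background.

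The 3 members with an unadjusted p under 0.05 pointed both ways. Hoxa3 had a mean of 136 ± 30.8 with ascorbic acid and 190.2 ± 18.1 without (SD, n = 4 each), which gave a difference of -0.45 ± 0.18 on the log2 scale (SE; limma, unadjusted p = 0.0265, adjusted p = 0.860). Hoxb13 had 139 ± 44.4 against 78.3 ± 38.1, a difference of 0.79 ± 0.34 (limma, unadjusted p = 0.0395, adjusted p = 0.876), which became 0.46 without control clone 2. Hoxd12, dim in every clone, had 31.9 ± 11.7 against 15.3 ± 8.80, a difference of 0.62 ± 0.26 (limma, unadjusted p = 0.0393, adjusted p = 0.876). For Hoxd1 the difference was 0.46 ± 0.22 (limma, unadjusted p = 0.0660, adjusted p = 0.892), and it became 0.30 without control clone 1. None of the 4 passed after adjustment.

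How large a difference these arrays leave possible is given by the intervals. The 95% interval of the log2 difference lay within 1 log2 unit on either side of 0 for 25 of 33 Hox genes. That is a smaller share than the 88.2% of all genes. The interval reached past 1 log2 unit for Hoxb2, Hoxb3, Hoxb6, Hoxb13, Hoxc10, Hoxd3, Hoxd11 and Hoxd12. Of members at or above the limit in every clone, Hoxa5 had an interval from -0.20 to 0.36, Hoxa9 from -0.39 to 0.29 and Hoxc6 from -0.43 to 0.16. Dim Hoxc10 had the lowest point estimate, -0.76 with an interval from -1.61 to 0.10, so a difference of that size did not pass even the unadjusted test there. These intervals are for single genes and are not corrected for their number.

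**Figure D2:**
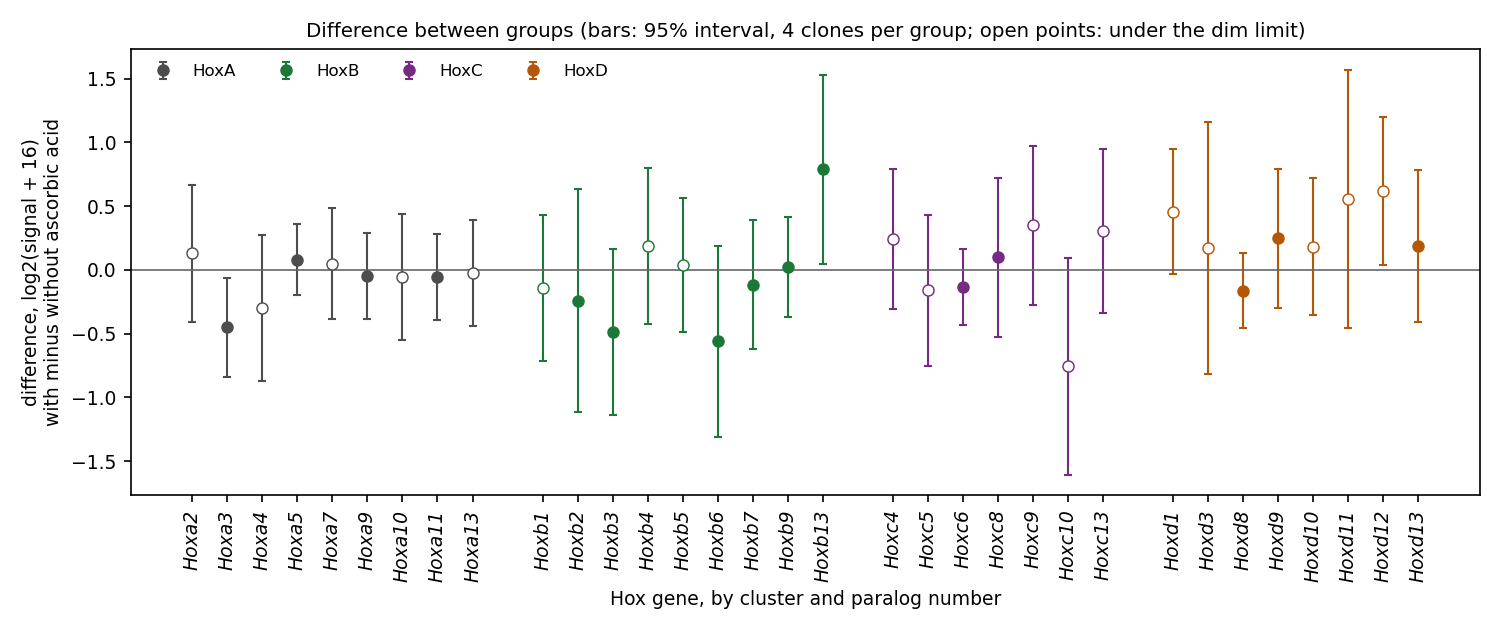
Difference between groups for each Hox gene on log2(signal + 16), with minus without ascorbic acid, with the 95% interval from limma (4 clones per group); filled points are members at or above the limit of 94 and open points are dim. The interval includes 0 for 30 of 33 genes, and all HoxD points but Hoxd8 lie above 0.

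By cluster, the plot of differences shows points on both sides of 0 in all 4 clusters, with 1 HoxD gene below it. The median difference was -0.05 for HoxA (3 members higher with ascorbic acid, 6 lower), -0.12 for HoxB (4 and 5), 0.10 for HoxC (4 and 3) and 0.22 for HoxD (7 and 1). Hoxd8, at -0.16 ± 0.13, was the HoxD member that pointed down, and it was also the one with the smallest spread. The mean log2 value of the 8 HoxD genes was 6.37, 6.14, 6.33 and 6.59 in ascorbic acid clones 1 to 4 and 5.84, 6.01, 6.40 and 6.06 in control clones 1 to 4. The groups overlapped, since control clone 3 lay above 3 of the ascorbic acid clones. The HoxD median was 0.39 without ascorbic acid clone 2, 0.33 without ascorbic acid clone 3 or control clone 3, and 0.17 without ascorbic acid clone 4; the number of HoxD genes pointing up was 6 without ascorbic acid clone 1 and 5 without control clone 1. With 1 clone left out the other medians crossed 0: HoxA was 0.03 without ascorbic acid clone 4 and 0.00143 without control clone 4, HoxB was 0.01 without ascorbic acid clone 1 and 0.02 without ascorbic acid clone 3, and HoxC was -0.09 without control clone 4. Of the HoxD genes 5 of 8 were dim, and all 5 pointed up. They are among the 12 of 18 dim Hox genes in all clusters that pointed up. Of all genes 47.9% pointed up, and the median difference of all dim genes was -0.026. The part of signal level in the HoxD differences was not tested.

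Along the clusters, the median difference was -0.14 for the 7 genes of paralog groups 1 to 3, -0.04 for the 12 genes of groups 4 to 8 and 0.18 for the 14 genes of groups 9 to 13. The mean log2 value of the last set was 6.63, 6.58, 6.68 and 6.81 with ascorbic acid and 6.55, 6.45, 6.63 and 6.40 without, and these ranges overlapped as well.

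**Figure D3:**
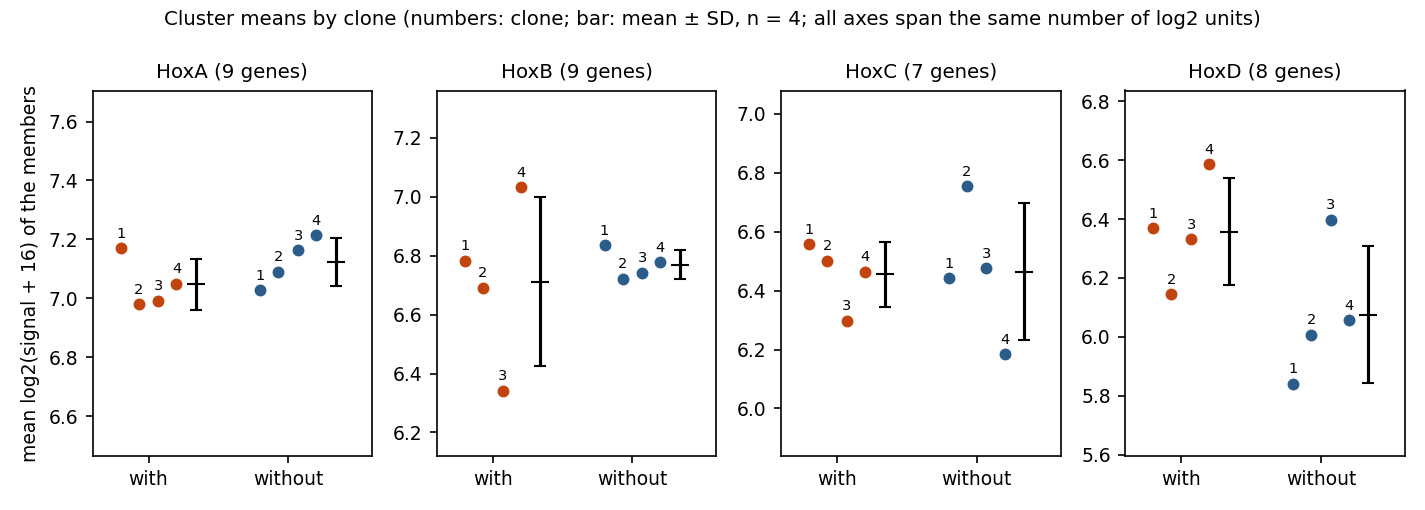
Mean log2(signal + 16) of the genes of each cluster in each clone (points, labelled by clone number), with the group mean and SD (n = 4); all panels span the same number of log2 units. The groups overlap in every panel, HoxB is spread most among ascorbic acid clones, and HoxD is lowest in control clone 1.

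The cluster means ranged over 0.24 log2 units between clones in HoxA, 0.69 in HoxB, 0.57 in HoxC and 0.75 in HoxD, as the plot of cluster means by clone shows. The group means (with minus without) differed by -0.08, -0.06, -0.01 and 0.28 in that order. The HoxB mean was 6.78, 6.69, 6.34 and 7.03 in ascorbic acid clones and 6.84, 6.72, 6.74 and 6.78 in control clones, with an SD of 0.29 against 0.05. The SD was 0.09 against 0.08 in HoxA, 0.11 against 0.23 in HoxC and 0.18 against 0.23 in HoxD. Over all 33 genes the mean was 6.74, 6.597, 6.51 and 6.81 with ascorbic acid and 6.56, 6.66, 6.72 and 6.596 without, so the groups overlapped. Ascorbic acid clone 4 had the highest value of all clones for 8 Hox genes and clone 1 for 7. Ascorbic acid clone 3 had the lowest for 9 (27.3%, against 14.0% of all genes) and control clone 1 for 8 (24.2%, against 11.7%). The rank of a clone changed from cluster to cluster: ascorbic acid clone 3 was lowest of all in HoxB and inside the range of the other clones in HoxD, and control clone 2 was highest of all in HoxC.

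Fibroblast and feeder markers also differed between the clones. Their summed signal over 39 genes was 71059, 83244, 70380 and 67866 in ascorbic acid clones 1 to 4 and 84229, 84805, 79854 and 78251 in control clones 1 to 4. The ascorbic acid clones were lower in 3 of 4 cases than every control clone, and clone 2 lay inside the control range. With ascorbic acid 30 of the 39 genes pointed down, with a median of -0.15, against 9481 of all 18193 genes. Pluripotency markers pointed down for 14 of 17 (median -0.12) and blood markers for 9 of 13 (-0.14). Neural markers pointed up for 8 of 12 and primitive endoderm markers for 9 of 14. Of the 39 fibroblast and feeder genes 9 had an unadjusted limma p under 0.05 (5.62% of all genes had one) and 0 passed the adjusted threshold. Of those 9 genes 8 pointed down and 1, Twist1, pointed up, with 201 ± 26.7 against 135 ± 21.1 (0.52, limma adjusted p = 0.819). The smallest p belonged to Postn (periostin), with 317 ± 33.9 against 416 ± 22.8 (difference -0.38, limma adjusted p = 0.819), and Nid1 (nidogen), with 1969 ± 171 against 2350 ± 149 (-0.25, limma adjusted p = 0.819). The clone with the highest Hox mean, ascorbic acid clone 4, had the lowest marker sum, and the clone with the lowest Hox mean, ascorbic acid clone 3, had the next lowest. The part of fibroblast RNA in the Hox signals was not tested.

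Spread between clones was wider for Hox genes than for genes in general, of which fewer are dim. The SD between clones within groups had a median of 0.37 on the log2 scale for the 33 Hox genes, against 0.19 for all genes. That median was 0.32 for the olfactory receptor genes and 0.34 for the keratin-associated protein genes. For dim genes it was 0.43 in general and 0.37 for the 18 dim Hox genes; for genes at or above the limit it was 0.15 in general and 0.31 for the 15 such Hox genes. The mean signals of those 15 ran from 102 to 789, and the genes in general were not matched to them for signal.

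**Figure D4:**
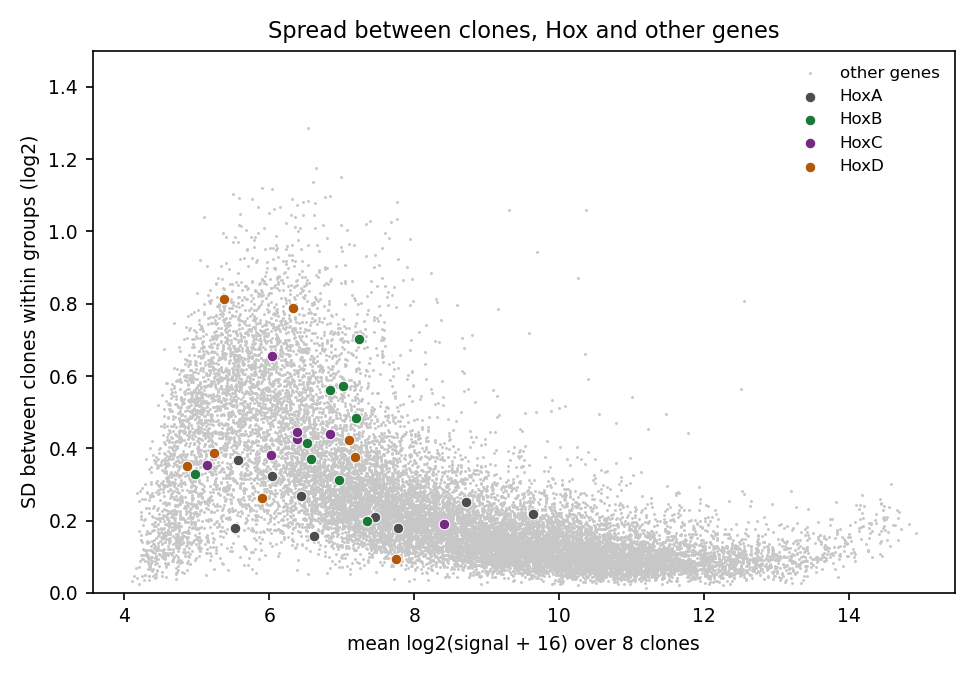
SD between clones within groups (log2) against mean log2(signal + 16) over 8 clones, for 33 Hox genes (coloured by cluster) and all other genes (grey). Most Hox genes lie on the dim left side, within the cloud of other genes, and Hoxa5, Hoxa9 and Hoxc6 sit apart at higher means with an SD under 0.3.

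The plot of spread against mean level has few Hox genes in the range where the array is precise. A check of the readings comes from genes with several probe sets. There were 48 probe sets naming a single Hox gene, of which 30 were under the limit, and 11 members had more than 1. The brightest Hoxa5 probe set, of the _x_at kind that can read more than 1 transcript, had a mean of 789, and the other had 130. For Hoxa9 the means were 407 and 41.3, and for Hoxd13 126 and 12.8. Hoxc6, brightest on another _x_at probe set, had 327, 298 and 23.1. Signals of different probe sets are not on 1 scale, but these values show which readings rest on 1 probe set alone: for Hoxa9, Hoxd13, Hoxb3 (139 and 45.5) and Hoxd8 (200.1 and 89.8) the other probe set was under the limit.

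**Figure D5:**
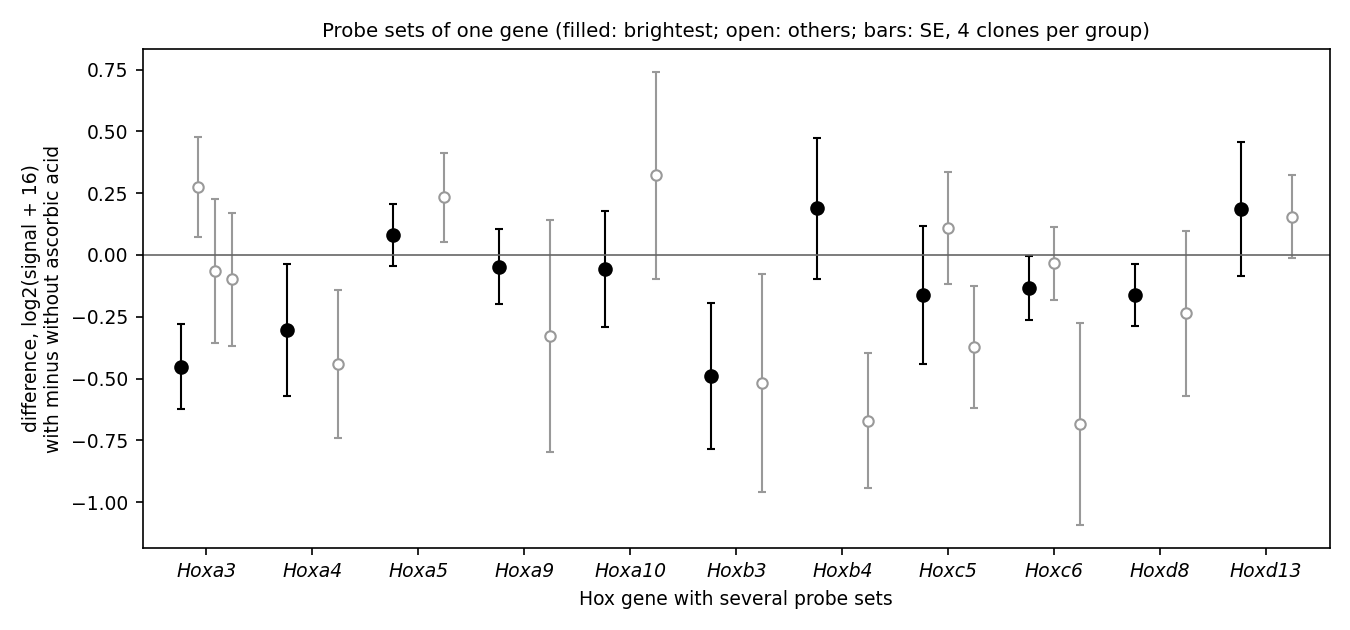
Difference between groups on log2(signal + 16), with minus without ascorbic acid, for every probe set of the 11 Hox genes that have several; filled points are the brightest probe set, open points the others, and bars the SE (4 clones per group). For Hoxa3 and Hoxb4 the brightest and the next probe set lie on opposite sides of 0.

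Direction differed between probe sets for 4 of the 11 genes and was shared for 7, as the plot of differences by probe set shows. For Hoxa3 the brightest gave -0.45 and the next, with a mean signal of 130, gave 0.27 ± 0.20. For Hoxb4, a gene of the neck and of blood progenitors, the brightest gave 0.19 ± 0.29 and the other -0.67 ± 0.27 (limma over probe sets, unadjusted p = 0.0318, adjusted p = 0.907). Hoxa10 and Hoxc5 also had probe sets on both sides. After adjustment over all 45037 probe sets the smallest p of a Hox probe set was 0.907 and 0 of 51 Hox probe sets (3 of them naming more than 1 Hox gene) passed in limma, where 0.0244% of all probe sets did. At an unadjusted limma p under 0.05 there were 4 of 51 (7.84%), against 5.37% of all probe sets. The low p of Hoxa3 thus rests on 1 of its 4 probe sets.

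Hox proteins bind DNA with partners of the Pbx, Meis and Prep families. Of 8 such cofactors measured 7 were at or above the limit (13264 of all 18193 genes were), 0 passed the limma adjusted threshold and 5 pointed up. An unadjusted limma p under 0.05 was found for 2 of 8, against 5.62% of all genes. Meis2 had 363 ± 21.3 with ascorbic acid and 287 ± 17.5 without (difference 0.32 ± 0.10, limma adjusted p = 0.819), and Pbx3 had 739 ± 25.1 against 648 ± 50.1 (0.19 ± 0.07, limma adjusted p = 0.863). The groups did not overlap for either gene, as for 3.25% of all genes.

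Among upstream regulators, the Cdx and ParaHox genes, homeobox factors that act on the Hox clusters or share their ancestry, were under the limit for 6 of 6, with Gsx2 (0.46) and Gsx1 (-0.42) having the smallest p, 0 passing and 0 at an unadjusted p under 0.05. Retinoic acid opens the clusters during development, and of 17 genes listed for its pathway 11 were at or above the limit. Of the 17 genes 0 passed and 1 had an unadjusted limma p under 0.05 (5.62% of all genes had one). That gene was dim Cyp26b1, a retinoic acid hydroxylase, with 20.6 ± 13.5 against 41.7 ± 2.96 (-0.71 ± 0.25, limma adjusted p = 0.819), and Rxrb, a retinoid receptor, was next (-0.20). Of 15 trithorax and elongation genes, which keep Hox genes active, all 15 were at or above the limit. Of them 0 passed and 1 had an unadjusted limma p under 0.05 (5.62% of all genes had one). It was Aff4, an elongation factor scaffold (0.19 ± 0.07, limma adjusted p = 0.822), and Wdr5, a core subunit of the histone methyltransferases, came next (-0.09).

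Most genes beside the clusters were above the limit, as were most genes in general (13264 of 18193 at or above it). Of the 3 nearest coding genes on each side of each cluster 22 were measured, of which 20 were at or above the limit and 2, Evx1 and Skap1, were under it. Beside HoxA these were Cbx3, Snx10, Skap2, Hibadh and Tax1bp1. Beside HoxB they were Atp5g1, Calcoco2, Ttll6, Snx11 and Cbx1, and beside HoxC Atf7, Atp5g2, Calcoco1, Smug1, Cbx5 and Hnrnpa1. Beside HoxD they were Atp5g3, Lnpk, Evx2 and Mtx2; Evx2, the homeobox gene at the end of HoxD, had a mean signal of 252 and a difference of 0.28. None of the 22 passed, and 0 had an unadjusted limma p under 0.05. Inside the clusters, 5 noncoding genes were measured and 3 were under the limit. Gm15050 in HoxA had a mean of 111 and Hoxd3os1 in HoxD had 126, with differences of 0.29 and -0.19; Hoxa11os, antisense to Hoxa11, was dim at 35.3 (-0.25) and Hoxb5os at 76.9. In the wider list of neighbours, 22 genes measured, Calcoco2 (-0.27) and dim Jazf1 (0.53) had the smallest p, 0 passed and 0 had an unadjusted limma p under 0.05.

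Non-Hox genes that also mark the body site of a fibroblast were dim for 11 of 18, against 27.1% of all genes. Of these 18 genes 0 passed and 1 had an unadjusted limma p under 0.05, where 5.62% of all genes had one. It was Shox2, a limb and heart gene, with 52.1 ± 11.1 against 79.9 ± 18.3 (-0.49 ± 0.22, limma adjusted p = 0.886). Tbx5, the gene of the forelimb and heart, had 40.6 ± 9.06 against 98.7 ± 65.6 (-0.83 ± 0.39, limma adjusted p = 0.892). Tbx4, the hindlimb counterpart, was above the limit on average with a mean of 214, and Pitx1, which specifies the hindlimb, with 173. The other genes of the list above the limit were Six2 (263), Foxf1 (190), Tcf21 (171), Barx1 (164) and Zic1 (114). An olfactory receptor gene reached a mean of 214 as well, so these levels name no body site.

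Markers of other cell states had 0 genes past the limma adjusted threshold in each list. Over all genes 27.1% were under the limit, 5.62% had an unadjusted limma p under 0.05 and 3.25% had groups that did not overlap. In mesoderm 11 of 13 genes were at or above the limit and 1 had an unadjusted limma p under 0.05, Fgf8 (-0.81 ± 0.35), with Lmo2 (0.69) next. Of 12 neural genes 9 were at or above it and 4 had an unadjusted p under 0.05; Sox1 had 434 ± 50.9 with ascorbic acid and 276 ± 90.04 without, with groups that did not overlap (0.68 ± 0.22, limma adjusted p = 0.819), and Tubb3 had a difference of 0.38. The other 2 neural genes pointed down, Nes with -0.21 and dim Olig2 with -0.44, the latter with groups that did not overlap. Primitive endoderm (14 genes, Gata6 0.31 and Afp -0.46) and trophectoderm (12 genes, Elf5 0.67 and Hand1 0.20) had 0 genes at an unadjusted limma p under 0.05. Blood markers had 3 of 13, with Laptm5 (-0.26) and Cd74 (-0.27) having the smallest p and Ebf1 pointing up (0.43). Pluripotency markers had 3 of 17, with Tbx3 (-0.28 ± 0.07) and Klf2 (-0.30 ± 0.08) having the smallest p. The groups did not overlap for Cd74, Ebf1, Tbx3 and Klf2 either.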

How the data were processed

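Expression was measured in 8 samples, 4 clones with and 4 without ascorbic acid, grouped and numbered as in the labels. The authors deposited a linear signal intensity for every probe set. GCOS, the Affymetrix operating software, is named in the submitters' processing notes, with no settings. The values show that each array has a mean of 500 after trimming 2% at each end. RNA was not treated with DNase, per the labels' protocols. Of 45101 probe sets 64 are controls, 34945 name 1 gene, 932 several and 9160 none; 99.4% of the single symbols matched RefSeq GRCm38.p6.

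Signals were used as log2(signal + 16), so differences of dim genes are understated. The deposited scaling was kept, since array medians of log2(signal + 16) spanned 0.199, under the limit of 0.2 set for it. All 18193 genes, dim ones included, were fitted in R 4.3.3 by lmFit and eBayes (trend on, two-sided) of limma 3.58.1. P-values were adjusted by Benjamini and Hochberg's method across all these genes, with the threshold at 0.05. The script was tested on simulated data. Genes given by clone are those with a mean signal of at least 94, an unadjusted p under 0.05 or groups that do not overlap; from every list come the 2 genes with the smallest p and those beside a cluster that reach 94. Other named genes were chosen after their values were seen. The members and lists were chosen with earlier results of these data known. Medians and counts of sets were not tested. The clone numbers do not pair the samples: same-numbered clones had correlations of -0.11, -0.05, 0.02 and -0.01 in their deviations from the group means. Also run were median centring, quantile normalization, pseudocounts of 1 and 64, filters at 40% and 60%, the mean of probe sets, no _s_at or _x_at probe sets, eBayes with no trend, robust or with array weights, a replicate block on clone number, and leaving out each clone. The number of arrays limits the precision.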

Additional observations from a re-analysis of the deposited data

Results flagged for a closer look

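A value was picked out when the highest or lowest of the 4 clones of a group lay far from the nearest other clone compared with the range of the group (Dixon's 95% critical value). Of 76 groups looked at, 5 met this (6.58%, where chance gives about 5%). Ascorbic acid clone 4 was far above its group for 3 genes: Hoxa3 with 182.4 (the others 118.2 to 126.0), Hoxa11 with 246.4 (182.9 to 188.6) and dim Hoxc5 with 75.46 (34.82 to 41.41). Control clone 2 was low for Hoxa13 with 68.9 (87.61 to 88.58), and control clone 1 was high for Hoxb6 with 153.5 (135.1 to 137.7). Clone 4 of the ascorbic acid group also had the lowest summed signal of fibroblast and feeder markers, 67866; the part of that in these values was not tested.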

How the results depend on the processing

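Under each of 20 alternatives 0 Hox genes passed the adjusted threshold of limma, and the smallest adjusted p of a named Hox gene was 0.748. The number of dim Hox genes stayed between 18 and 20. The eBayes settings, the filters and the replicate block cannot move a difference of a gene kept on the same probe set, so they say nothing of direction. Under the 5 alternatives of scaling, pseudocount and weights 0 of 85 values of the 17 named genes turned. With 1 clone left out 10 of 136 values turned, in 7 genes, over these ranges: Hoxa5 -0.0344 to 0.176, Hoxa9 -0.143 to 0.0850, Hoxb2 -0.50 to 0.20, Hoxb7 -0.252 to 0.0428, Hoxb9 -0.0508 to 0.107, Hoxc8 -0.19 to 0.23 and Hoxd13 -0.10 to 0.32. The count of Hox genes whose groups did not overlap was 3 under quantile normalization and 3 under median centring, which added Hoxb6 and Hoxb13 to Hoxd1. It was 0 with the 40% filter (15 Hox genes tested) and 0 with the 60% filter (3 tested), both of which drop dim Hoxd1. Leaving out a clone gave 2 to 4, where 3 clones part from 4 more easily than 4 from 4. The share of all genes without overlap was not counted under these settings. The HoxC median was -0.14 with the 60% filter, which leaves 1 HoxC gene, and -0.0914 to 0.232 when a clone was left out. The cause of the other changes was not tested. The replicate block on clone number bears only on p: 0 Hox genes passed with it, and the smallest adjusted p was 0.940. Signals near the limit, the number of arrays and the missing fibroblast arrays limit what can be said of silencing and memory.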
